A study of Mus musculus with 6 samples.

Results

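Dppa2, Dppa3, Dppa4, Dppa5a and Nelfa were examined in mouse embryonic stem cells sorted by a MERVL reporter. The 5 genes were chosen by name, as Dppa genes and maternal factors linked to activation of Dux, and all 5 had a row among the 17110 genes of the authors' deposited table. The cells were of the line TG2A, carried a fluorescent reporter under MERVL, and were kept in serum medium supplemented with leukemia inhibitory factor (LIF). Fluorescence-activated sorting gave a DsRed2+ group and a DsRed2- group of 3 biological replicates each, taken on different days, and both groups carried the reporter and had the same culture. All samples are of this 1 line, and the labels state no other genotype or agent.

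MERVL is an endogenous retrovirus that is transcribed in the two-cell embryo and in a small, passing fraction of cultured embryonic stem cells, called two-cell-like cells. The transcription factor Dux switches on MERVL and neighbouring two-cell genes. Dppa2 and Dppa4 are chromatin proteins with a SAP domain that act as a pair and bind the Dux locus. Nelfa, a subunit of the negative elongation factor that holds RNA polymerase II near promoters, has been described as a maternal factor that can drive the two-cell-like state. Dppa3, also called Stella, is a maternal-effect protein that keeps Uhrf1 and Dnmt1 from methylating DNA. Dppa5a is an RNA-binding protein with a KH domain and a common marker of pluripotent cells.

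For each gene the authors' deposited table holds a single fold change, with its standard error (SE), and no value for any library, so values per library are not shown. Nor does it name the groups it compares or the numerator. It is read here as the comparison of the sorted groups because the labels list no others, and each sign below is the deposited one, with no statement of which sorted group it favours. The mean normalized counts in the authors' deposited table ran from 5.58 to 587461, with a median of 394.2. These are counts divided by library size factors and averaged over the libraries, and the depth of each library is not analysed here. In bulk RNA, more cells that express a gene and more RNA of it per cell cannot be told apart.

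Of the 5 genes, Dppa2, Dppa4 and Dppa5a had positive fold changes in the authors' deposited table, Dppa3 had a negative one, and Nelfa did not pass the test. Thus 4 of 5 passed an adjusted p-value of 0.05 in the authors' deposited table (DESeq2, Benjamini-Hochberg over all genes), where 30.5% of all genes did so. The 3 positive calls stand against 14.6% of all genes called positive in the authors' deposited table, and the 1 negative call against 15.9% called negative. The authors' own call adds an absolute log2 fold change over 0.5, and the same 4 genes carried it, against 21.5% of all genes in the authors' deposited table. By direction, 3 of the 5 genes were called up by the authors and 1 down, where 9.4% and 12.1% of all genes were. All 5 genes were well counted, and the lowest of them, Dppa3, had a higher mean count than 67.6% of the genes in the authors' deposited table.

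**Figure D1:**
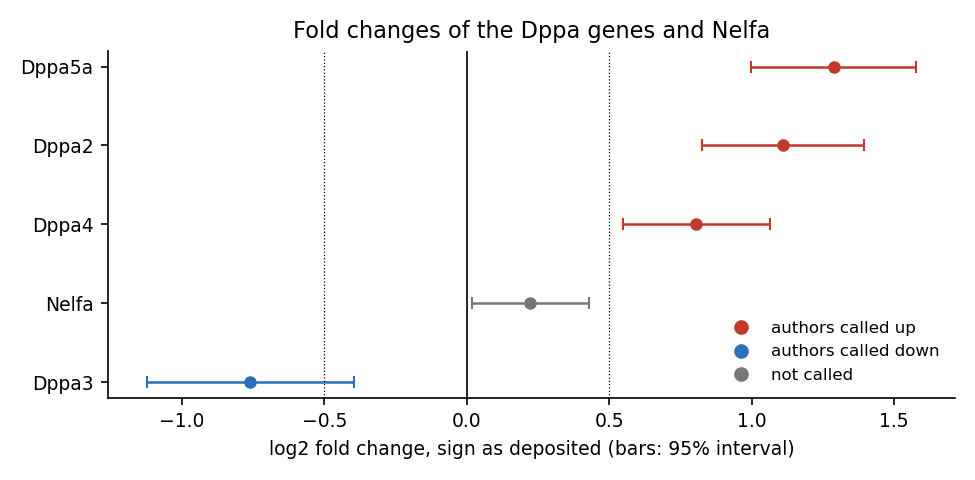
Log2 fold changes of the 5 genes in the authors' deposited table (points, horizontal axis) with 95% intervals from the deposited standard errors (bars). Dotted lines mark the authors' limit of 0.5. The intervals of Dppa5a, Dppa2 and Dppa4 lie above 0.5, that of Dppa3 spans -0.5, and that of Nelfa lies between 0 and 0.5.

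The Dppa genes have relatives and processed copies elsewhere in the genome, so the sequence that such copies share with them is shown first. In GENCODE M21 transcripts (GRCm38), 29.1% of the 50-base stretches of Dppa2, 31.3% of those of Dppa4, 38.6% of those of Dppa5a and 16.5% of those of Dppa3 also occurred in transcripts of other genes. For Nelfa this share was 0.282%, all of it with Nsd2, whose gene overlaps the end of Nelfa on the opposite strand. The stretches below are 110 bases of coding sequence, 5′ to 3′, shown because each has a copy with its own row in the authors' deposited table. Capitals mark bases that lie in a 50-base stretch shared with that copy, and lower case marks the bases that do not.
Dppa2, coding bases 452 to 561, against Gm9788: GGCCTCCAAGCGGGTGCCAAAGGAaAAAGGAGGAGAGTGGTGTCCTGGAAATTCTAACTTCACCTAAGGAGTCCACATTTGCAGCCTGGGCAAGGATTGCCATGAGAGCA
Dppa4, coding bases 453 to 562, against Gm14058: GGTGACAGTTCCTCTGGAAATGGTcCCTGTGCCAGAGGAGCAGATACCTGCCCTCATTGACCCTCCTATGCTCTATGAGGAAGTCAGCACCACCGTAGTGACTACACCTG
Dppa5a, coding bases 69 to 178, against Gm6798: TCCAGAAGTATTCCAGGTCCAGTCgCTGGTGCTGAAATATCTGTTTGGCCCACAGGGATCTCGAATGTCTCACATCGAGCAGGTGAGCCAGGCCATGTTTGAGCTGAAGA
In each window a single base interrupts the shared sequence. Over the whole coding sequence, 796 of 903 bases of Dppa2 lay in stretches shared with Gm9788, 560 of 888 bases of Dppa4 in stretches shared with Gm14058, and 171 of 354 bases of Dppa5a in stretches shared with Gm6798.

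The gene models Gm9788, Gm14058 and Gm6798 are annotated as processed pseudogenes. Their mean normalized counts in the authors' deposited table were 103.8, 85.4 and 91.4. The corresponding means of Dppa2, Dppa4 and Dppa5a in the authors' deposited table were 3074, 4472 and 38163. Gm9788 had a log2 fold change of 1.38 (SE 0.29) in the authors' deposited table, and Dppa2 had 1.11. Gm14058 stood at 1.21 (SE 0.28) in the authors' deposited table, against 0.80 for Dppa4. For Gm6798 the authors' deposited table gave 1.23 (SE 0.29), and Dppa5a had 1.29. In each pair the 95% intervals overlapped, and the copy and its parent had the same sign. Their fold changes are not independent measurements, since reads from shared stretches could be given to either. Pigp, a subunit of the enzyme that starts assembly of membrane anchors, shares 72 coding bases with Dppa5a in this annotation. On the log2 scale it stood at -0.40 and missed the threshold in the authors' deposited table (DESeq2 adjusted p-value 0.0639).

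**Figure D2:**
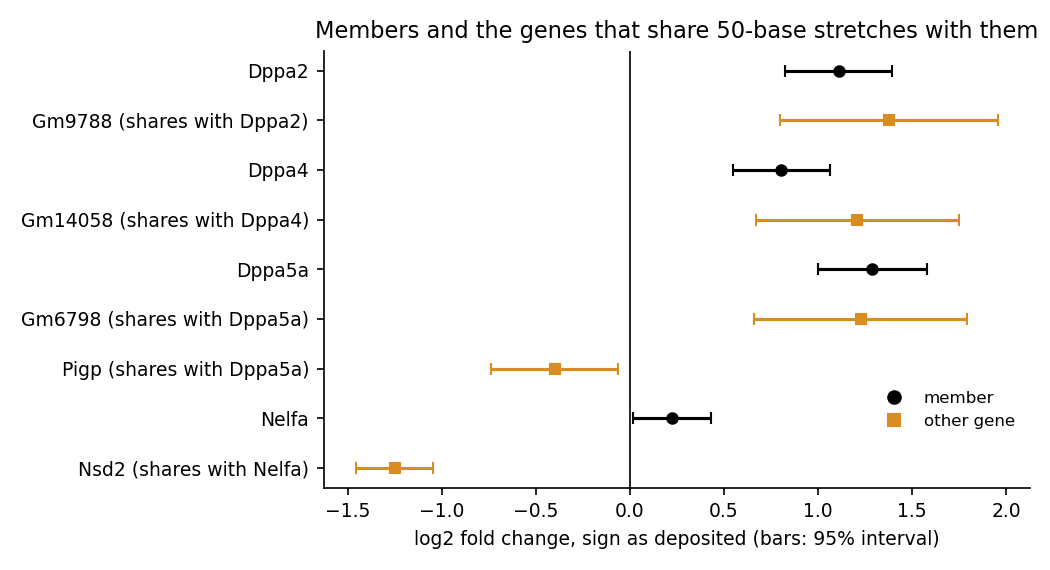
Log2 fold changes in the authors' deposited table (horizontal axis, bars are 95% intervals) of Dppa2, Dppa4, Dppa5a and Nelfa (circles) and of the genes with a row that share 50-base stretches with them (squares). The 3 processed pseudogenes lie on the same side of 0 as their parents, while Pigp and Nsd2 lie on the other side of 0 from Dppa5a and Nelfa.

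Dppa2 (ENSMUSG00000072419) and Dppa4 (ENSMUSG00000058550) encode the paired activators of Dux. Dppa2 had a mean normalized count of 3074 and a log2 fold change of 1.11 (SE 0.15, 95% interval 0.82 to 1.40) in the authors' deposited table, a ratio of 2.16 between the groups. Its adjusted p-value in the authors' deposited table was 6.81e-13 by DESeq2. Dppa4 had a log2 fold change of 0.80 (SE 0.13, 95% interval 0.55 to 1.06) in the authors' deposited table, a ratio of 1.75. The adjusted p-value of Dppa4 in the authors' deposited table was 1.54e-08 by DESeq2. Tested against an absolute log2 fold change of 0.5 in place of 0, from the deposited values, Dppa4 no longer passed (Wald test, Benjamini-Hochberg adjusted p-value 0.177), while Dppa2 did (0.000538). The intervals of the pair overlapped, and their difference was not tested, since the table gives no covariance between genes. Among the 3314 other genes of the authors' deposited table with a mean count within 2-fold of that of Dppa2, 36 had as high a fold change. Among the 2606 such genes around Dppa4 in the authors' deposited table, 55 did. Of all 17109 other genes at any level, 1094 had as high a fold change as Dppa2, and 1604 as high a one as Dppa4.

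Dppa5a (ENSMUSG00000060461) had the most positive fold change of the 5 genes. Its log2 fold change in the authors' deposited table was 1.29 (SE 0.15, 95% interval 1.00 to 1.58), a ratio of 2.44. The DESeq2 adjusted p-value was 1.26e-16 in the authors' deposited table. It was also the most abundant of the 5, with a higher mean count than 99.4% of the genes in the authors' deposited table. Of the 224 other genes with a mean count within 2-fold of it in the authors' deposited table, 0 had as high a fold change. At any level, 902 of 17109 other genes did. The 224 genes changed less often than most: 15.2% of them passed an adjusted p-value of 0.05 by DESeq2, against 30.5% of all genes. Expressed per kilobase of the longest GENCODE M21 transcript, the mean count of Dppa5a in the authors' deposited table was 61653, against 3023 for Dppa4, 1289 for Dppa3, 1256 for Dppa2 and 1022 for Nelfa. On this length-adjusted scale Dppa5a was far above the other 4 genes, and Dppa3 and Dppa2 differed little. These levels are means over all libraries with no error in the table.

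Dppa3 (ENSMUSG00000046323), the guard against maintenance methylation, was the 1 member with a negative fold change. The authors' deposited table gave it a log2 fold change of -0.76 (SE 0.19, 95% interval -1.12 to -0.40), a ratio of 1.69 in the direction opposite to the other Dppa genes. Its adjusted p-value by DESeq2 was 0.000283 in the authors' deposited table. Against an absolute log2 fold change of 0.5 it did not pass (Wald test, Benjamini-Hochberg adjusted p-value 0.938). At any level, 2195 of 17109 other genes had as low a fold change. Of the 4315 other genes within 2-fold of its mean count in the authors' deposited table, 244 did. Its standard error was larger than that of 89.5% of these genes, whose median standard error in the authors' deposited table was 0.12. Dppa5a, Dppa2 and Dppa4 were likewise less precisely measured than most genes of like level. Their standard errors lay above those of 91.5%, 84.8% and 78.5% of such genes in the authors' deposited table.

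Nelfa (ENSMUSG00000029111) had a log2 fold change of 0.22 (SE 0.11, 95% interval 0.017 to 0.43) in the authors' deposited table, a ratio of 1.17. Its unadjusted p-value was 0.0338, and it missed the threshold after adjustment over all genes, at 0.0954 by DESeq2 in the authors' deposited table. The interval of Nelfa excluded a change as large as the authors' limit of 0.5 in either direction. Its standard error was larger than that of 45.8% of the genes within 2-fold of its mean count in the authors' deposited table, so it was measured about as precisely as genes of its level usually were. Of those 3574 genes, 817 had as high a fold change. At any level, 4849 of 17109 other genes did.

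**Figure D3:**
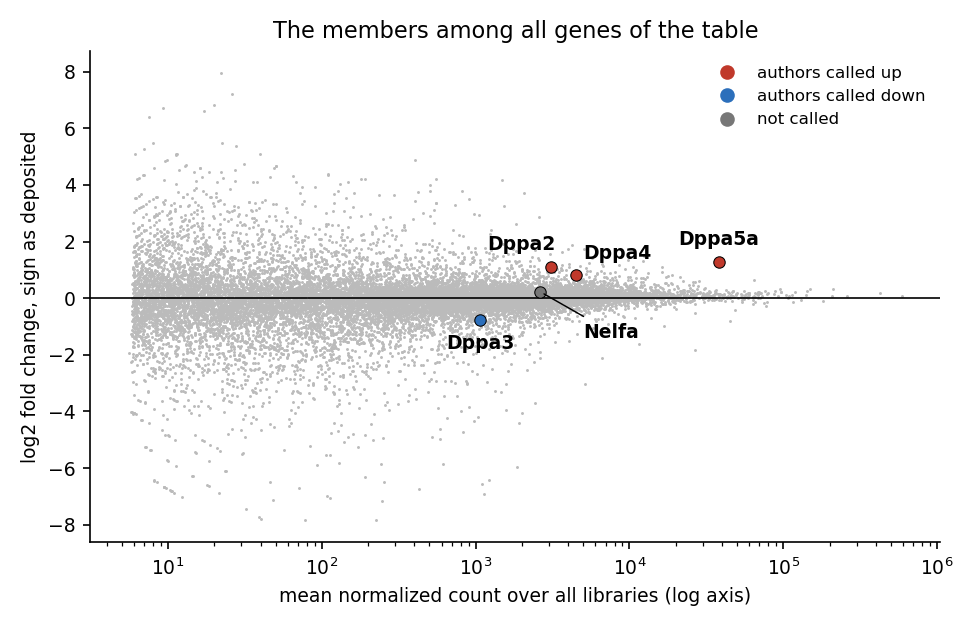
Log2 fold change (vertical axis) against mean normalized count (horizontal log axis) for all 17110 genes of the authors' deposited table (grey) and the 5 genes (large points, coloured by the authors' call). Dppa5a stands above the other genes of its level, Dppa2 and Dppa4 lie at the upper edge of the cloud, and Nelfa lies within it.

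The neighbouring genes along the chromosome showed whether the fold changes were shared locally. Dppa4 and Dppa2 lie side by side on chromosome 16 in GENCODE M21 (GRCm38), followed by Morc1, which encodes an ATPase that silences transposons in male germ cells. Morc1 had the largest absolute Wald statistic of all genes in the authors' deposited table, with a log2 fold change of 3.70 and a standard error of 0.098. Its DESeq2 adjusted p-value is listed as 0 in the authors' deposited table. The genes on either side of this trio did not pass the test. Nectin3, a cell adhesion gene, stood at 0.0032 and Dzip3, a ubiquitin ligase gene, at -0.088 in the authors' deposited table (SE 0.093 and 0.12). Ahcyl stood at -0.27, and the pseudogene models Gm7204 and Gm8670 at 0.22 and -0.28 in the authors' deposited table.

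Dppa3 lies on chromosome 6 between Gdf3, a ligand of the TGF-beta family, and Nanog, a core pluripotency factor. Both of these neighbours had the sign opposite to that of Dppa3. Gdf3 had a log2 fold change of 0.49 (SE 0.13, DESeq2 adjusted p-value 0.000541 in the authors' deposited table). Nanog had 0.73 (SE 0.15, DESeq2 adjusted p-value 5.75e-06 in the authors' deposited table). Apobec1, a cytidine deaminase gene beyond Gdf3, had 0.43 (SE 0.30) in the authors' deposited table, short of the threshold. Of the pseudogene models between Dppa3 and Nanog, Gm10420 did not pass, at -0.30, and Gm10224 had 1.92 on a mean count of 10.9 in the authors' deposited table (DESeq2 adjusted p-value 0.0279).

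Around Dppa5a on chromosome 9, the nearest genes shared its sign. Ooep, the next gene, encodes another KH-domain protein, of the oocyte's subcortical maternal complex. Its log2 fold change was 1.68 (SE 0.17) in the authors' deposited table (DESeq2 adjusted p-value 1.43e-21). The helicase gene Ddx43 beyond it had 0.89 (SE 0.20, DESeq2 adjusted p-value 9.39e-05 in the authors' deposited table). On the other side, Gsta4, a glutathione transferase gene, had 0.88 (SE 0.10, DESeq2 adjusted p-value 1e-16 in the authors' deposited table). Farther out, Cilk1, a kinase gene, had -0.35 (DESeq2 adjusted p-value 0.0129 in the authors' deposited table), while Fbxo9 at 0.14 and Cgas at 0.74 did not pass.

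Nelfa lies on chromosome 5 and meets Nsd2, a histone H3K36 methyltransferase gene, tail to tail. Nsd2 had a log2 fold change of -1.25 (SE 0.11) in the authors' deposited table (DESeq2 adjusted p-value 2.42e-30), the sign opposite to that of Nelfa. Whether reads were assigned by strand is not given in the sources used here, so reads from the overlapping ends could have gone to either gene. Nat8l, which makes N-acetylaspartate, had -0.74 and Fgfr3, a growth factor receptor gene, -1.98 (DESeq2 adjusted p-values 0.0137 and 6.22e-06 in the authors' deposited table). Letm1, Poln and Haus3 did not pass, at -0.13, -0.11 and 0.069 in the authors' deposited table.

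**Figure D4:**
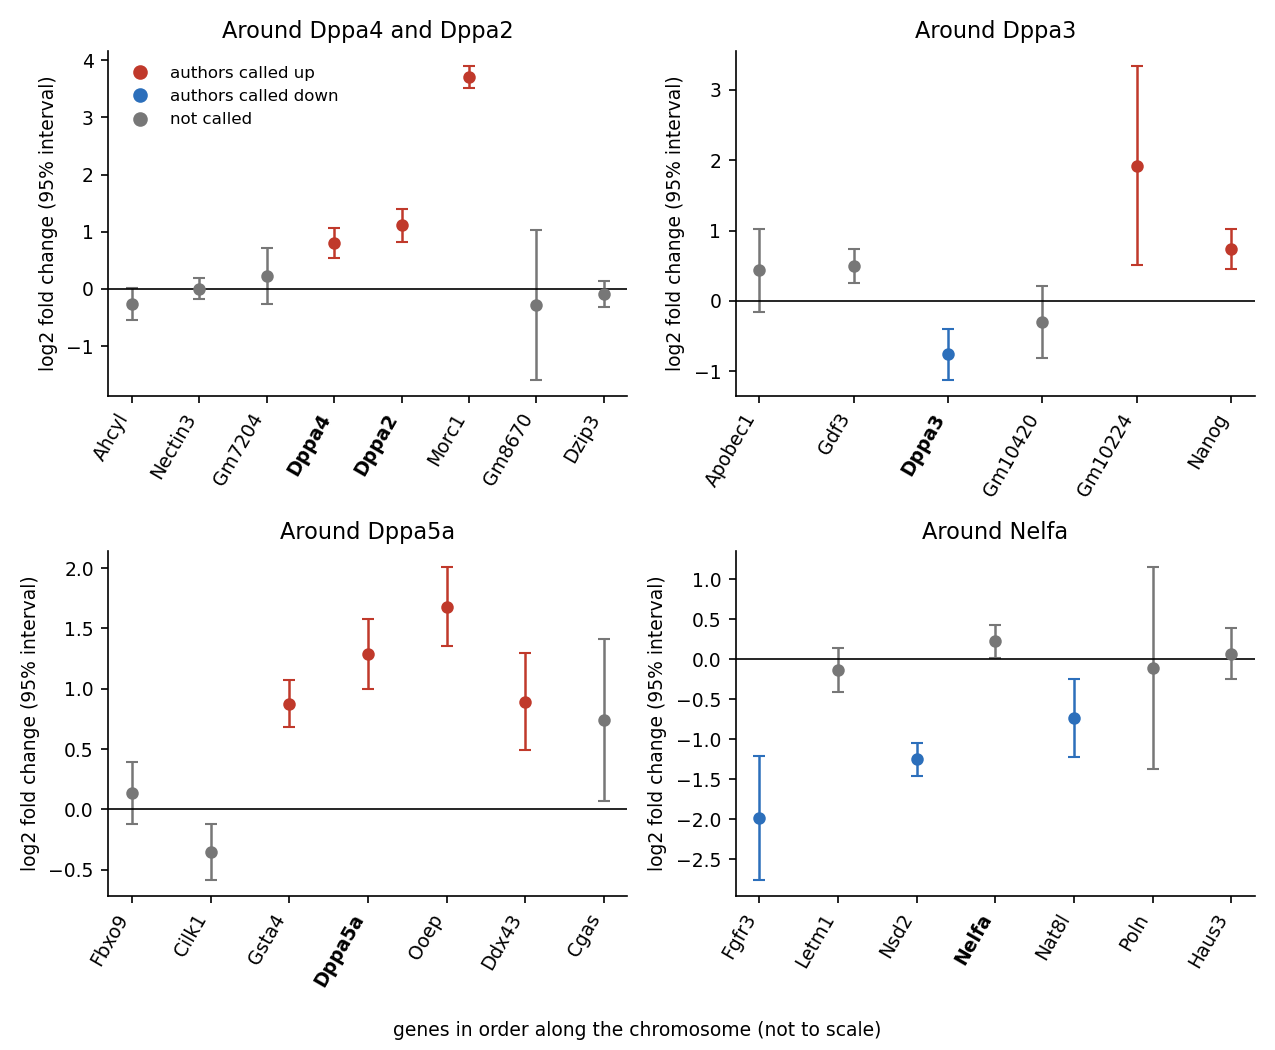
Log2 fold changes in the authors' deposited table (vertical axis, bars are 95% intervals) of the members (bold) and of up to 3 genes with a row on each side, in chromosome order and not to scale. Points are coloured by the authors' call, which also needs an absolute log2 fold change over 0.5. Dppa4 and Dppa2 stand beside Morc1 at 3.70, Dppa3 lies below its neighbours Gdf3 and Nanog, and Nelfa lies above Nsd2.

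Nelfa works as part of a complex, and the other subunits gave small fold changes. Nelfb, Nelfcd and Nelfe stood at -0.059, 0.086 and -0.12 in the authors' deposited table (SE 0.080, 0.082 and 0.092). Thus 0 of the 4 subunits passed an adjusted p-value of 0.05 by DESeq2 in the authors' deposited table, and 1, Nelfa, had an unadjusted p-value under 0.05. A wider list held the other NELF subunits, the pausing factor DSIF and the kinase P-TEFb with its regulators. Of its 12 genes beside Nelfa, 1 was called positive and 0 negative in the authors' deposited table, where 30.5% of all genes were called in either direction. The called gene was Mepce, which caps the 7SK RNA that restrains P-TEFb, at 0.38 (SE 0.11, DESeq2 adjusted p-value 0.00197 in the authors' deposited table). The median log2 fold change of the 12 genes was 0.087, against 0.0097 for the whole of the authors' deposited table. Supt5, the large subunit of DSIF, stood at 0.088 and Ccnt2, a cyclin of P-TEFb, at 0.20 in the authors' deposited table, neither past the threshold. Hexim1, an inhibitor of P-TEFb, stood at 0.24 (SE 0.13) in the authors' deposited table and likewise missed it.

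Other genes listed as activators of Dux or inducers of the two-cell-like state varied in both directions. Of 14 listed genes beside the members, 9 had a row and 5, all of the oocyte Obox family, were not analysed here. Of the 9 genes, 5 were called positive and 2 negative in the authors' deposited table, against 14.6% and 15.9% of all genes. Their median log2 fold change was 0.60. Tbx3, a transcription factor of naive stem cells, had 2.39 (SE 0.18) in the authors' deposited table. Tet1, which oxidises methylated cytosine, had 0.83 (SE 0.091), and Klf5, a pluripotency factor, had 0.60 (SE 0.071) in the authors' deposited table. Trp53, which encodes p53, stood at 0.25 (SE 0.17) and did not pass (DESeq2 adjusted p-value 0.273 in the authors' deposited table). In the authors' deposited table Gata2, a GATA factor, had a log2 fold change of -0.58 (SE 0.59) on a mean count of 21.7, short of the threshold. The topoisomerase genes went opposite ways. Top2a, whose product has been described as a partner of Nelfa, had 0.60 (SE 0.095), and Top2b had -0.86 (SE 0.13) in the authors' deposited table. The other gene called negative was Smad7, at -0.77 (SE 0.12) in the authors' deposited table. Smad7 and the topoisomerase genes fall outside the rule for named genes and were chosen after their values were seen.

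Genes that silence Dux or MERVL gave mostly small fold changes. All 28 listed genes had a row, and 13 were called positive and 1 negative in the authors' deposited table, where 14.6% and 15.9% of all genes were called in these directions. The 28 log2 fold changes of the authors' deposited table had a median of 0.19. With the authors' fold limit added, 3 of the 28 genes were called up and 0 down, where 9.4% and 12.1% of all genes were. The count of genes called up thus lay near the share of all genes. After centring on ribosomal protein genes, which lowers every fold change by 0.093, the list held 8 positive and 2 negative calls. Over all 17110 genes the same centring gave 1864 positive and 3508 negative calls. Nr0b1, an orphan nuclear receptor also called Dax1, had 1.36 (SE 0.15) in the authors' deposited table. Mga, the scaffold of the polycomb complex PRC1.6, had 0.53 (SE 0.074), and Dnmt1, the maintenance methyltransferase, 0.39 (SE 0.065) in the authors' deposited table. Pias4, a SUMO ligase reported to modify Dppa2 and oppose its action, had 0.35 (SE 0.11) in the authors' deposited table and was chosen after its value was seen (DESeq2 adjusted p-value 0.00764). Smchd1, the 1 gene called negative, had -0.48 (SE 0.099), and Trim28, called up by the authors like Nr0b1 and Mga, had 0.65 (SE 0.13). Smchd1 and Trim28 were likewise chosen after their values were seen. Ncl and Sumo2, the most abundant genes that missed the threshold, stood at 0.080 and 0.044 in the authors' deposited table.

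The proteins that Dppa3 acts on belong to the DNA methylation machinery, and the genes of this machinery were called in both directions. Of 9 genes, 5 were positive and 3 negative by the test in the authors' deposited table, beside 14.6% and 15.9% over the whole table. The median of their log2 fold changes was 0.39. Tet1 and Tet2 also stand in the list of Dux activators above, and Dnmt1 and Uhrf1 in that of repressors. All of these were called positive, so the counts of these lists are not separate. Dnmt3l, the cofactor of de novo methylation, had 1.73 (SE 0.18) in the authors' deposited table. Tet2, an oxidase like Tet1, had 1.01 (SE 0.16) in the authors' deposited table. Uhrf1, the protein that Dppa3 displaces from chromatin, had 0.39 (SE 0.099) in the authors' deposited table, the sign opposite to that of Dppa3. The called genes with the sign of Dppa3 were Uhrf2, a relative of Uhrf1, at -0.58 (SE 0.16), the oxidase gene Tet3 at -0.57 (SE 0.14) and the de novo methyltransferase gene Dnmt3b at -0.40 (SE 0.16) in the authors' deposited table. The authors' deposited table lists DESeq2 adjusted p-values of 0.00205, 0.000349 and 0.0390 for them. Uhrf1 and these 3 genes fall outside the rule for named genes and were chosen after their values were seen. Dnmt3a, a de novo methyltransferase, stood at 0.098 (SE 0.13) in the authors' deposited table and missed the threshold.

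**Figure D5:**
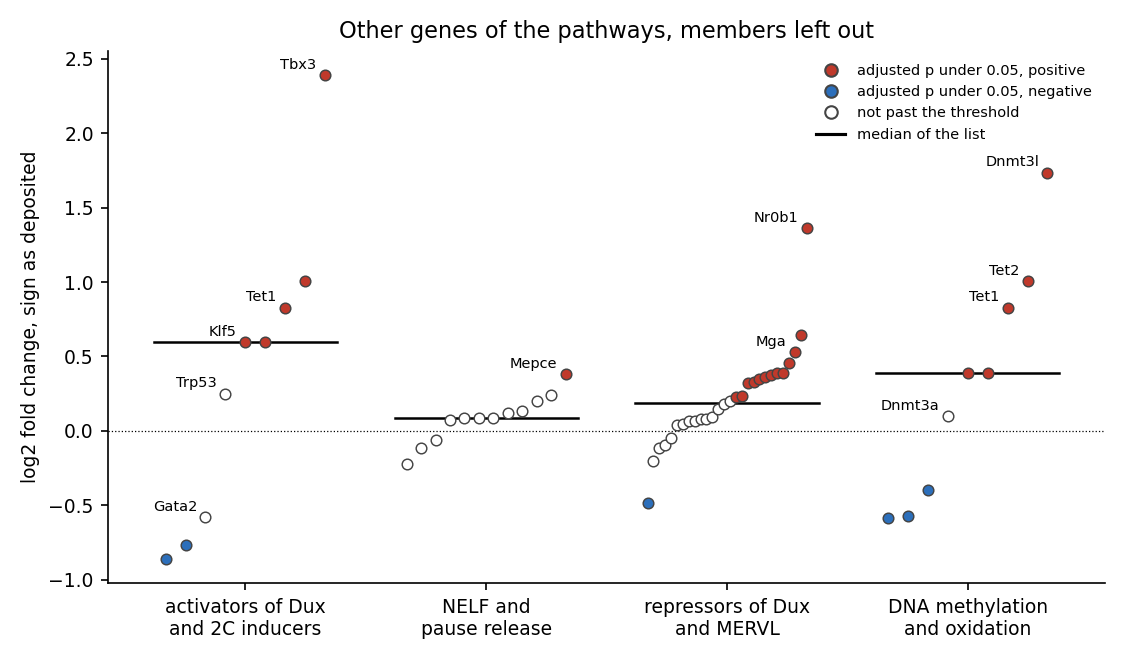
Log2 fold changes in the authors' deposited table (vertical axis) of the other genes of 4 pathways, without the 5 members. Each list has 1 point a gene, and Tet1, Tet2, Dnmt1 and Uhrf1 are drawn in more than 1 list. Filled points passed an adjusted p-value of 0.05, and black lines are medians. The NELF and pausing genes cluster around 0 with 1 filled point, while the list of repressors holds 13 filled positive points and 1 filled negative point.

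Genes reported to depend on Dppa2 and Dppa4 include Dux and its targets, and few of these had a row. Of 10 such genes beside Dppa3, 3 had a row, and 7, with Dux and Zscan4c among them, were not analysed here. Mael and Syce1, genes of germ cells and meiosis, stood at 2.78 (SE 0.24) and 1.71 (SE 0.19) on the log2 scale in the authors' deposited table. Hand1, a mesoderm and trophoblast factor, had -3.68 (SE 0.80) on a mean count of 25.8 in the authors' deposited table. Of 30 genes listed for the two-cell programme, 5 had a row, with 2 called positive and 1 negative in the authors' deposited table (14.6% and 15.9% of all genes). Those called positive were Calcoco2, an autophagy receptor gene, at 3.10 and Zfp809, a zinc-finger gene that itself silences retroviruses, at 0.91 in the authors' deposited table. Duxbl1, a Dux-like homeobox gene, was the negative one at -0.77 (SE 0.20) in the authors' deposited table. Zbed6 at 0.087 and Arg2 at 0.45, on a mean count of 6.12, did not pass in the authors' deposited table. Dppa2 and Dppa4 thus had values, while most of the listed two-cell genes downstream of Dux were not analysed here. Khdc3, a further KH-domain gene in the list of relatives of Dppa5a and Ooep, had 4.21 (SE 0.25) in the authors' deposited table, and the other 4 listed relatives were not analysed here.

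The labelled cell type was checked on its markers, and the called markers of other cells were all negative. Of 9 stem cell markers, 8 had a row, with mean counts from 2822 to 32810, and 4 were called positive and 0 negative in the authors' deposited table, where the shares of all genes were 14.6% and 15.9%. Zfp42 had 1.10, Esrrb 0.91, Sox2 0.14 and Lin28a -0.046 in the authors' deposited table, the last of these not distinguishable from 0, like Sox2. Of 11 markers of fibroblasts, trophectoderm, primitive endoderm and mesoderm, 9 had a row, with 0 called positive and 5 negative in the authors' deposited table, set against the same 14.6% and 15.9%. The mesoderm factor T had -6.56 (SE 0.79) on a mean count of 1106 in the authors' deposited table. Cdx2 of trophectoderm had -5.82 (SE 0.96, mean count 129.5) and Twist1 of mesenchyme -2.54 (SE 0.35, mean count 51.9). Vim at 0.20 and Thy1 at 0.34 did not pass. The mean counts of these 9 genes ran from 9.05 to 4399 in the authors' deposited table, and their summed level in each group is not analysed here. The signs of Dppa2, Dppa4 and Dppa5a were those of the called stem cell markers, and the sign of Dppa3 was that of the called markers of other cells. The part of other cells in the members' fold changes was not tested.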

How the data were processed

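RNA captured by poly(A) from 6 samples, 3 in each of 2 sorted groups, was sequenced as paired ends. Per the submitters' processing notes, the tools named were FastQC 0.12.1, Trimmomatic 0.39, STAR 2.7.11b, RSEM 1.3.3 and DESeq2 1.45.3 with the build GRCm39. Their settings, the annotation and the model are not given in the sources used here. Per the file headers, the comparison table carries the column names of DESeq2. Its mean normalized count is a signal deposited as a mean over libraries, the fold change and its error were deposited as log2 values, the statistic is a score deposited by the authors and equals the fold change divided by its standard error within 5.77e-07, and the p-value and adjusted p-value are used as deposited. The 6 columns of the count table carry run and barcode names that match no sample, so they were not used, and the planned tests on counts were not run.

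Intervals of 95% are the fold change with its standard error under a normal distribution. Calls are at an adjusted p-value under 0.05. Gene order came from GENCODE M21 (GRCm38) for 16795 genes matched by Ensembl ID. Shared stretches were counted on both strands with 50 bases. Because the builds differ, no coordinates are printed. The rule for named genes took the 5 members, 3 neighbours on each side (1 is not reported here), all members of lists with at most 6 rows, and of longer lists the 3 genes with the smallest p-value and the 2 most abundant that missed the threshold. The members and lists were chosen with earlier results of these data known. The code for the Wald test and its adjustment was run on simulated fold changes drawn with the deposited standard errors. That run checks the code only, not the deposited fit, the ranks or the list counts. Computing used Python 3.11.15, pandas 2.3.3, numpy 2.4.6, scipy 1.17.1 and matplotlib 3.10.9.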

Additional observations from a re-analysis of the deposited data

How the results depend on the processing

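The alternatives that need counts per sample (other normalizations and filters, another test, each fit without 1 replicate) were not run. Whether 1 library decides a value was therefore not tested. No paired analysis was possible because no value could be tied to a replicate. The other 6 alternatives included an adjusted p-value of 0.01 and a test against an absolute log2 fold change of 0.5. They also included a minimum mean count of 50, a recomputed adjustment, and centring on all genes or on 76 ribosomal protein genes. Only centring alters a fold change, so the sign was fixed under the rest. The recomputed adjustment nearly repeats the deposited one, and all members exceed a mean count of 50. Nelfa, already short of 0.05, could not pass at 0.01 or against 0.5. Under these alternatives, 28 of 30 values of the members stayed on their side of the threshold with their sign. Most of them could hardly have moved, so this count is no measure of robustness. Both exceptions came with the test against 0.5, a stricter question by construction: Dppa3 at -0.76 had an adjusted p-value of 0.938 and Dppa4 at 0.80 one of 0.177, while Dppa2 at 0.000538 and Dppa5a at 3.07e-06 still passed. Adjusted p-values of Nelfa lay between 0.0861 and 1.0, and its fold change was 0.13 after ribosomal centring. Over all 17110 genes, the test against 0.5 left 659 positive and 927 negative in place of 2492 and 2719, and ribosomal centring gave 1864 and 3508. In the list of Dux activators and inducers of the two-cell-like state, the test against 0.5 left 3 positive and 0 negative of 9 genes. It left 0 positive of the 12 pausing genes and 1 positive and 0 negative of the 28 repressors. Of the 9 methylation genes it left 3 positive and 0 negative. Ribosomal centring gave 8 positive and 2 negative repressors. Counting the members into their lists, an alternative chosen after seeing the data, moved no count by over 1.5 times. With a window of 1.5-fold, the members' ranks among genes of like level stayed within the 95% binomial intervals of the 2-fold ranks. The narrower window lies inside the wider one, so the ranks share genes and their agreement is no independent check. For Dppa5a, with 0 genes as high in the wider window, the rank could not change.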

Other observations

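Lists for 2 further settings were drawn up after the members' values had been seen, and are given as values with no test of the list. The first of them holds 0 of the members. Ooep and Khdc3 belong to the subcortical maternal complex of the oocyte. Of 8 genes listed for this complex and its relatives, 5 had a row, and 4 were called positive and 0 negative in the authors' deposited table, where 14.6% of all genes were called positive. Khdc3 and Ooep are among these 4 and already stand in the list of relatives of Dppa5a above. The list was drawn up after values were seen, so its count is no test of the complex. The other called genes were Nlrp4f at 2.45 (SE 0.35, the standard error of the log2 fold change), on a mean count of 60.3, and Tle6, which encodes a core subunit, at 0.84 (SE 0.22) in the authors' deposited table. Zbed3 stood at 0.16 and did not pass in the authors' deposited table.

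Dppa3 marks primordial germ cells, and other genes of these cells were called in both directions. All 10 listed genes had a row, with 4 called positive and 2 negative in the authors' deposited table, against 14.6% and 15.9% of all genes. Alpl, which encodes tissue-nonspecific alkaline phosphatase, had 0.67 (SE 0.14), and Dazl, an RNA-binding protein gene of germ cells, had 1.16 (SE 0.31) in the authors' deposited table. Nanos3, needed for survival of migrating germ cells, had -2.03 (SE 0.48), the sign of Dppa3, on a mean count of 40.7 in the authors' deposited table. Kit at 0.44 and Ifitm3 at 0.28 did not pass in the authors' deposited table.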
